A study of Mus musculus with 2 samples.

Results

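The genes described here are the H/ACA small nucleolar RNAs (snoRNAs, symbols starting with Snora) and the small Cajal body RNAs (scaRNAs, symbols starting with Scarna), measured in mouse cerebral cortex. Members were taken by symbol alone, which gave 51 of 55450 annotated genes, 42 Snora and 9 Scarna entries. They carry 49 different symbols, since Snora43 and Snora16a each have a pair of overlapping entries, and each entry has a single annotated transcript. The samples were left cerebral cortex of 2 female adult mice of the F1 hybrid B6CASTF1/J, aged 8 to 10 months, with no treatment named in the labels and with 1 total RNA library per animal, so there is a single group and no contrast between conditions. The labels call the animal of replicate 1 animal 1 and that of replicate 2 animal 5. The labels give both animals the same donor entry. Each library started from 300 ng of RNA and was reduced in ribosomal RNA, with ERCC spike-ins, which are synthetic transcripts added in known amounts.

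H/ACA snoRNAs are noncoding RNAs of the nucleolus that fold into paired hairpins and guide the conversion of uridine to pseudouridine in ribosomal RNA. They work inside a particle with the pseudouridine synthase dyskerin (Dkc1) and its partners Nop10, Nhp2 and Gar1. scaRNAs do the same kind of work on spliceosomal RNAs, in the nuclear compartment called the Cajal body; some belong to the H/ACA class, some to the box C/D class that guides ribose methylation, and some combine both. Most are cut from introns of other genes, called host genes, after splicing. A few members have no known target among pseudouridylation sites. Snora73, also called U17, is needed for processing of ribosomal RNA.

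The sequences below show what a copy pair shares, how a short and a long H/ACA RNA are built, and what the abundant scaRNAs look like at their ends. They were read from the GENCODE M21 transcripts, build mm10, the annotation that the deposited files name. Snora73a (chr4:132352775-132352979, minus strand) and Snora73b (chr4:132352322-132352526, minus strand) have the same length of 205 nt. They differ at 7 positions, in capitals, and are 96.6% identical.
Snora73a: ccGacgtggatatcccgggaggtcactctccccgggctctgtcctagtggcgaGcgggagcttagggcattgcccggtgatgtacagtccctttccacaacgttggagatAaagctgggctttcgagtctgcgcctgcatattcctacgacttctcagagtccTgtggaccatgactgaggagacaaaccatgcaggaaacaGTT
Snora73b: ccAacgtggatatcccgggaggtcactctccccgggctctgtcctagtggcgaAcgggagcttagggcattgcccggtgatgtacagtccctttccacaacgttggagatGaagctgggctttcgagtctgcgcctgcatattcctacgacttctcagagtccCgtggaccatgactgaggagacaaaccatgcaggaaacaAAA
Counted from 1 at the 5′ end with the Snora73b base first, the differences are A3G, A54G, G111A, C164T, A203G, A204T and A205T. The longest stretch without a difference is 56 nt.

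Snora21 (chr11:97781639-97781775, minus strand), Snora35 (chrX:146994381-146994508, plus strand) and Snora23 (chr7:110046364-110046547, plus strand) stand for the short snoRNAs. Scarna13 (chr12:105031075-105031349, minus strand) is among the long scaRNAs. Capitals mark matches of the H box pattern ANANNA that start in the middle 20% of the length, and the last ACA within 8 nt of the 3′ end. Scarna13 holds the ACA without a match in the middle.
Snora21: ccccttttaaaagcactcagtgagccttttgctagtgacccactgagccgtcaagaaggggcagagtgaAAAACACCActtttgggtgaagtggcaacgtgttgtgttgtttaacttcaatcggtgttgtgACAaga
Snora35: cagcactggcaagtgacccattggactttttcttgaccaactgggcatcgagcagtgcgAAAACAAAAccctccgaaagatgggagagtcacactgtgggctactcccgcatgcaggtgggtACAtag
Snora23: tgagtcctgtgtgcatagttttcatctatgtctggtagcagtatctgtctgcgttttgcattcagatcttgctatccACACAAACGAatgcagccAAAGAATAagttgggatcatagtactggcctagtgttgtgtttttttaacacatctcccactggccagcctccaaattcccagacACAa
Scarna13: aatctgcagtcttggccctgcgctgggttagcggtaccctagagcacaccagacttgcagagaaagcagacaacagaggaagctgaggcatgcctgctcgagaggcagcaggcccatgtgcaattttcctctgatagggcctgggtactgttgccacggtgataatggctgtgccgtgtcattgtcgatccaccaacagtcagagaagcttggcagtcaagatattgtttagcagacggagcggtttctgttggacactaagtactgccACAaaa

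Scarna6 (chr1:87784556-87784820, plus strand) is shown whole, and the 60 nt at each end of Scarna10 (chr6:125186359-125186683, minus strand) and Scarna2 (chr3:108554338-108554751, minus strand) are shown because these RNAs held most of the reads. Capitals here mark the C box core TGATGA within the first 15 nt and the last D box, of letters CTGA, within the final 15 nt.
Scarna6: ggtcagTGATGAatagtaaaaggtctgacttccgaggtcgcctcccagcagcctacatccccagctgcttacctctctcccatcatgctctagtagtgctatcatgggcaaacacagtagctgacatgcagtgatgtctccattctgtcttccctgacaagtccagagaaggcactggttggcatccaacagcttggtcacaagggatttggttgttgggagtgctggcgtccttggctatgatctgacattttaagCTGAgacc
Scarna10, first 60 nt: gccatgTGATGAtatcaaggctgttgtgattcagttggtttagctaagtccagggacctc
Scarna10, last 60 nt: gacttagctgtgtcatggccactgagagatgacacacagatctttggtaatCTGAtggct
Scarna2, first 60 nt: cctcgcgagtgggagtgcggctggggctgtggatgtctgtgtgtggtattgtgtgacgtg
Scarna2, last 60 nt: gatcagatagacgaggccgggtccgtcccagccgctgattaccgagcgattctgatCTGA

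The letters differ between the classes of members. An ACA whose last base lies 3 nt before the 3′ end was present in 35 of 42 Snora sequences (83.3%), in 2 of 9 Scarna sequences, in 0 of 98 Snord sequences (box C/D snoRNAs of snoRNA biotype) and in 13 of 1383 annotated snRNA sequences (0.940%). Allowing any place in the last 8 nt gave 40 of 42 Snora sequences, 4 of 9 Scarna sequences, 7 of 98 Snord sequences and 75 of 1383 snRNA sequences. The Snora sequences without it are Snora44 and Snora81. ANANNA is a loose pattern: it started in the middle 20% in 37 of 42 Snora and 6 of 9 Scarna sequences, but also in 39 of 98 Snord and 957 of 1383 snRNA sequences. Scarna6, Scarna10, Scarna9 and Scarna17 carried both the C box core near the start and the D box letters near the end, and Scarna2 carried the D box letters near its end. No Snora sequence had the C box core in its first 15 nt, against 64 of 98 Snord sequences. The letters TGAG, the core of the signal that sends H/ACA scaRNAs to Cajal bodies, were found anywhere in 8 of 9 Scarna, 19 of 42 Snora, 82 of 98 Snord and 340 of 1383 snRNA sequences, so they do not set Scarna apart from Snord sequences. Matches were searched on the RNA strand only, overlapping matches included, and describe letters, not function.

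Depth was close in the libraries, with 28327434 expected counts in replicate 1 and 30234441 in replicate 2. An expected count is the estimated number of reads of a gene after reads that fit several genes are shared out. In the first deposited table the effective length, roughly the number of places where a read can start, is the annotated length less 100 nt. Scarna9 (70 nt annotated) and Scarna17 (79 nt) therefore have an effective length of 0 and no counts in either library, and nothing can be said of their levels; the other 49 members are described here. The 10 cortex marker genes checked against the labelled tissue, from Snap25 of neurons to Cldn5 of endothelium, had mean levels of 18.7 to 1312 TPM (counts scaled by effective length and then to a fixed total per library). In bulk tissue, fewer cells of a type and less RNA per cell cannot be told apart.

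Reads of the members fell on long RNAs almost alone. The 7 members of 196 nt or more each had at least 366 expected counts in each library, and the 42 shorter members had at most 26.9. The boundary was set from these counts, as the length of the shortest member with a mean of at least 50. By construction, the member at the boundary is thus high and every shorter member has a mean below 50. Long members held 98.4% of the members' counts in replicate 1 and 98.9% in replicate 2. The long group is Scarna10, Scarna2, Snora74a, Scarna13, Scarna6, Snora73b and Snora73a. Just below it in length come Snora23, of 184 nt with 23 and 25 counts, and Snora81, of 178 nt with 0 in both libraries. At least 10 counts in both libraries were found for 10 of 49 members, against 32.9% of 53002 genes with an effective length above 0. All 51 members together took 0.0321% of the counts in replicate 1 and 0.0379% in replicate 2 (mean 0.0350 ± 0.00406%, SD, n = 2), but 0.301% and 0.338% of the TPM.

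**Figure D1:**
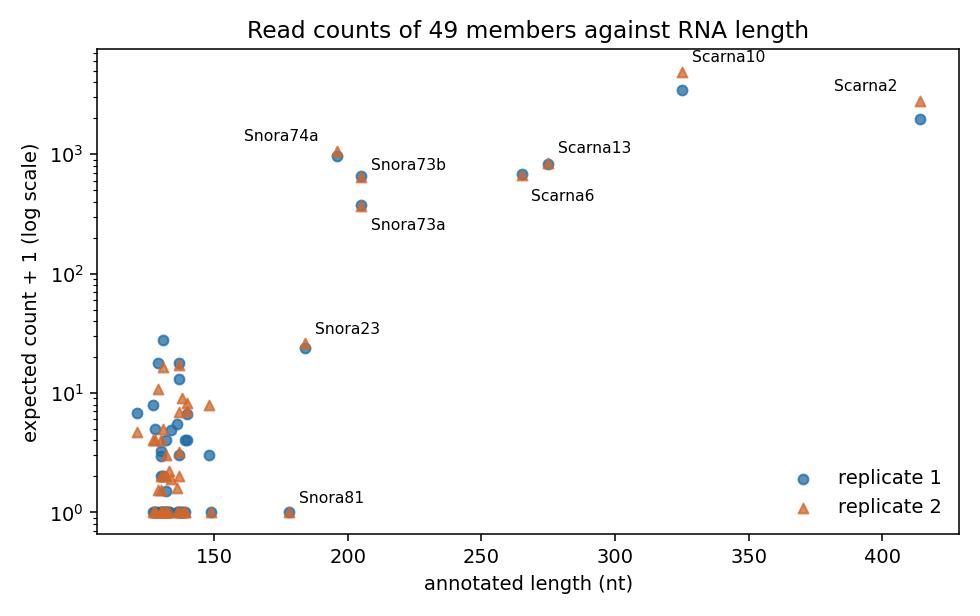
Expected count plus 1 (log axis) against annotated length in nt for the 49 members with an effective length above 0, with circles for replicate 1 and triangles for replicate 2. The 7 members of 196 nt or more, a boundary set from these counts, lie at 366 counts or above. All shorter members lie at 26.9 or below.

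Among other snoRNA and scaRNA genes and among snRNA genes below 196 nt, too, longer genes reached 10 counts more often. Few miscellaneous RNA genes reached 10 counts in any length class, although Rn7s2, of 196 nt or more, had a mean of 466936. Of the members of 101 to 150 nt, 2 of 40 reached 10 counts in both libraries, as did 3 of 11 Snord genes, 20 of 981 other snoRNA and scaRNA genes and 2 of 953 snRNA genes of that length. At 151 to 195 nt the counts were 1 of 2 members, 3 of 20 other snoRNA and scaRNA genes and 18 of 212 snRNA genes. At 196 nt or more they were 7 of 7 members, 1 of 1 Snord gene (Snord17) and 9 of 34 other snoRNA and scaRNA genes. That boundary was set from the members' counts. Of miscellaneous RNA genes 2 of 73 reached it at 101 to 150 nt, 2 of 45 at 151 to 195 nt and 10 of 385 at 196 nt or more, and of snRNA genes 0 of 2 at the greater length. All 87 Snord genes with an effective length of 0 had no counts, so the box C/D family could not be compared at its usual length. Whether short members are scarce in cortex or were poorly captured and counted cannot be told apart.

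Among the scaRNAs, Scarna10, which combines the box C/D and H/ACA designs, led all members. It had 3478 counts in replicate 1 and 4930 in replicate 2, or 123 and 163 CPM (counts scaled to the same library total, without length scaling). Its level was 852 TPM in replicate 1 and 1162 TPM in replicate 2 (1007 ± 219 TPM, SD, n = 2). Scarna2, a box C/D type scaRNA, came next with 1978 and 2807 counts, or 69.8 and 92.8 CPM. For both RNAs replicate 2 was the higher library by CPM and by TPM. Together they held 59.9% of the members' counts in replicate 1 and 67.6% in replicate 2. Scarna10 had 1.76 times the counts of Scarna2 in each animal.

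Scarna13, a tandem H/ACA scaRNA, had 821 counts in replicate 1 and 844 in replicate 2, or 29.0 and 27.9 CPM. Scarna6, a mixed C/D and H/ACA scaRNA, had 688 and 668 counts, or 24.3 and 22.1 CPM. The levels of these RNAs were close in the animals, at 257 ± 1.99 and 222 ± 10.7 TPM (SD, n = 2). The other scaRNAs are short and near 0. Scarna3a had 3 and 6 counts, its namesake Scarna3b 3 and 0, and Scarna8 0 and 4. At that depth the animals' counts of these 3 RNAs differ by only a few reads.

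Snora74a (U19), an H/ACA snoRNA of 196 nt on chromosome 18 from 35557032 to 35557227, had the most counts of any snoRNA in the group, 958 in replicate 1 and 1063 in replicate 2. That made 33.8 and 35.1 CPM. Its level was 569 ± 26.1 TPM (SD, n = 2), above the 411 ± 89.7 TPM of Scarna2, although Scarna2 had more counts in each library. The order of members thus depends on the unit: effective length was 96 nt for Snora74a and 314 nt for Scarna2. The same holds against all genes, where Scarna10 ranked 42 of 53002 by mean TPM and 1338 by mean CPM, and Snora74a 86 and 5343.

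The U17 copies Snora73b and Snora73a lie 248 nt apart within Rcc1 and Snhg3. Snora73b had 656 counts in replicate 1 and 644 in replicate 2, or 23.1 and 21.3 CPM. Snora73a had 377 counts in replicate 1 and 366 in replicate 2, or 13.3 and 12.1 CPM. The b copy was the higher in both animals, by 1.74 times in replicate 1 and 1.76 times in replicate 2, and the animals' values of the copies did not overlap. Levels per length were 335 ± 13.6 TPM for Snora73b and 192 ± 9.19 TPM for Snora73a (SD, n = 2). The expected counts of both copies are not whole numbers, so some of their reads were shared with other features, and how far the ratio depends on that was not tested.

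**Figure D2:**
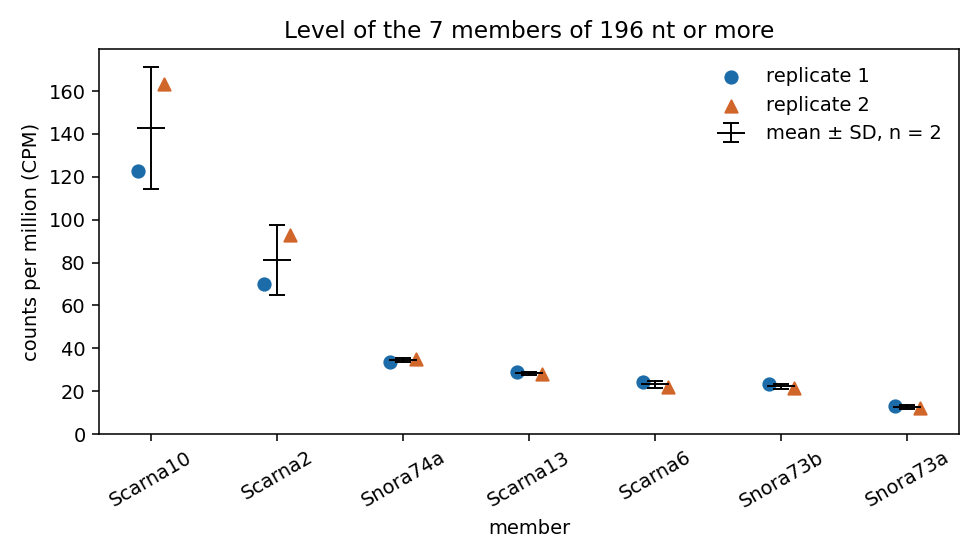
Level in CPM (linear axis from 0) of the 7 members of 196 nt or more, with coloured points for the replicates and black marks for the mean ± SD of 2 libraries. Scarna10 and Scarna2 are the highest and are the members in which the animals lie farthest apart, at 123 and 163 CPM for Scarna10.

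The 42 shorter members, of 121 to 184 nt, were near the limit of what these libraries count. Their median count was 0.250 in replicate 1 and 0.945 in replicate 2. Counts were above 0 in both libraries for 19 of them, 8 were at 0 in a single library and 15 were at 0 in both. The 15 include both overlapping Snora16a entries and the 139 nt entry of Snora43, whose 127 nt entry had 7 and 3 counts. Some of the 15 lie wholly inside an exon of another transcript with counts. Snora28, for example, lies in an Eif5 transcript with 152 counts in replicate 1 and 189 in replicate 2. Fractions of a count arise where reads were shared with another feature. The shorter members' median effective length of 32 nt makes TPM steep, since 1 count is worth 1.72 TPM in replicate 1 and 1.66 TPM in replicate 2. Counts, not TPM, are therefore given for these RNAs.

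Snora23 was the most counted of the short snoRNAs by mean, with 23 counts in replicate 1 and 25 in replicate 2. Snora68 had 26.9 and 15.5 counts, and Snora21 had 17 and 16. These are the shorter members with at least 10 counts in both libraries. Snora44 had 16.8 counts in replicate 1 and 9.76 in replicate 2, and Snora70 had 12.03 and 5.99. Replicate 1 was the higher for Snora68, Snora44 and Snora70, at depths where a few reads make the difference. Next came Snora7a with 5.72 and 7.28 counts, Snora43 (127 nt entry) with 7 and 3, Snora26 with 5.76 and 3.73, Snora57 with 2 and 7, Snora78 with 4 and 3, and Snora5c with 4.50 and 0.590. Snora34 had 0 counts in replicate 1 and 8 in replicate 2.

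Snora35, printed above, lies in an intron of the serotonin receptor gene Htr2c and is known as a brain-enriched H/ACA snoRNA without an assigned ribosomal target. It had 0 counts in both libraries. A count of 0 allows up to 3 counts, which for its effective length is 5.91 TPM in replicate 1 and 5.68 TPM in replicate 2, for counting error only. Its host Htr2c was measured in the same libraries at 16.0 and 14.7 TPM. Snora35 was thus not detected in these libraries, which does not show that it is absent.

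Between the animals, the long members differed by less than 2-fold. Differences are given as log2, replicate 2 minus replicate 1, after TMM scaling, which sets the bulk of genes equal, where the libraries averaged 50 counts or more. None of the 7 members with that many counts (0 of 7) differed more than 2-fold, against 1.25% of 14114 genes. With 1 library per animal and no second group there is no test of these differences. Scarna10 was higher in replicate 2 by 0.37 (counting SE 0.0319) and Scarna2 by 0.37 (counting SE 0.0424), each 1.29-fold. Their deposited credibility intervals of TPM did not overlap between the animals, while those of the other 5 long members did. Those of the short Snora34, with 0 and 8 counts, did not overlap either. The deposited TPM of Scarna10 lies above its own interval in both libraries, at 852 against 791 to 846 in replicate 1. That of Scarna2 does so in replicate 2, so overlap of these intervals is a rough guide only. More than 1.2-fold higher in replicate 2 were these 2 of 7 members, against 14.3% of all genes. The 1.2-fold limit was chosen after the values were seen. Differences at least as large in either direction were found in 16.0% of genes for Scarna10 and 15.8% for Scarna2.

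The other differences were 0.013 for Snora74a, -0.097 for Scarna13, -0.16 for Snora73b, and -0.18 for both Scarna6 and Snora73a. The members' median was -0.097, beside -0.023 over all 14114 genes. The direction of Scarna13, Scarna6, Snora73a and Snora73b depends on the scaling. With TMM scaling 3 of 7 members were higher in replicate 2, against 45.5% of all genes. With scaling on the spike-ins, which adds 0.276 to the log2 differences, 7 of 7 were, against 88.1% of all genes, so that count says nothing particular about the members. The median of all genes then is 0.25. Under spike-in scaling Scarna10 and Scarna2 differed by 0.64 each, and Scarna13 by 0.18. A change of scaling shifts all members by nearly the same amount, so it is no check on their order.

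**Figure D3:**
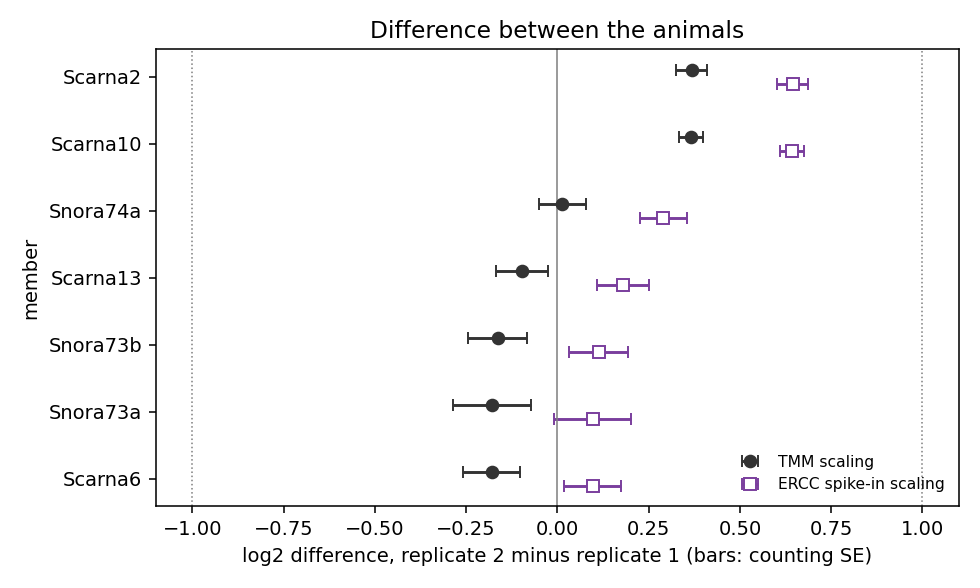
Log2 difference, replicate 2 minus replicate 1, of the 7 members with a mean of at least 50 counts, with filled circles for TMM scaling, open squares for ERCC spike-in scaling and bars for the counting SE. With TMM scaling Scarna10 and Scarna2 lie at 0.37 and the other members between -0.18 and 0.013, and spike-in scaling moves every member to the right by 0.276.

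The deposited files hold a second quantification of the same libraries, and most members look different in it. Of 11 members with a mean of at least 10 counts in the first table, 4 had any count in the second. All 4 are scaRNAs. Scarna2 had most of its counts there too, with 1357 counts in replicate 1 and 1906 in replicate 2, or 68.6% and 67.9% of the first table. Scarna6 had 209 and 195 counts, or 30.4% and 29.2%. Scarna10 had 440 and 589 counts, or 12.7% and 11.9%, and Scarna13 had 91 and 78, or 11.1% and 9.24%. By mean TPM the order in the second table was Scarna2 at 395, Scarna10 at 218, Scarna6 at 128 and Scarna13 at 50.2, whereas Scarna10 led in the first. With TMM scaling the animals' log2 difference had the same sign in both tables for these 4 scaRNAs. In the second table it was 0.27 for Scarna10, 0.34 for Scarna2, -0.37 for Scarna13 and -0.25 for Scarna6. For Scarna13 and Scarna6 the sign in the first table depends on the scaling, as given above.

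Snora74a, Snora73a and Snora73b, with 366 to 1063 counts in the first table, had 0 in the second. For Snora74a another transcript over the same bases had counts in the second table. A retained-intron transcript of AC121821.1 has an exon of 615 nt that holds all of Snora74a. That transcript had 7.94 and 11.9 counts in the first table and 1022 and 1147 in the second, while Snora74a had 958 and 1063 in the first. A processed transcript of Snhg3 covers 77.6% of Snora73a, but it had fewer counts in the second table (13.9 and 7.79) than in the first (63.3 and 78.0). A transcript of Rpl32 that holds Snora7a had 48.7 and 53.7 counts in the first table and 694 and 743 in the second, far more than the 5.72 and 7.28 counts of Snora7a. In all, 19 of 51 members lie wholly inside an exon of another long transcript. For such members the level depends on which transcript a read is given to, and the files do not show the reads.

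**Figure D4:**
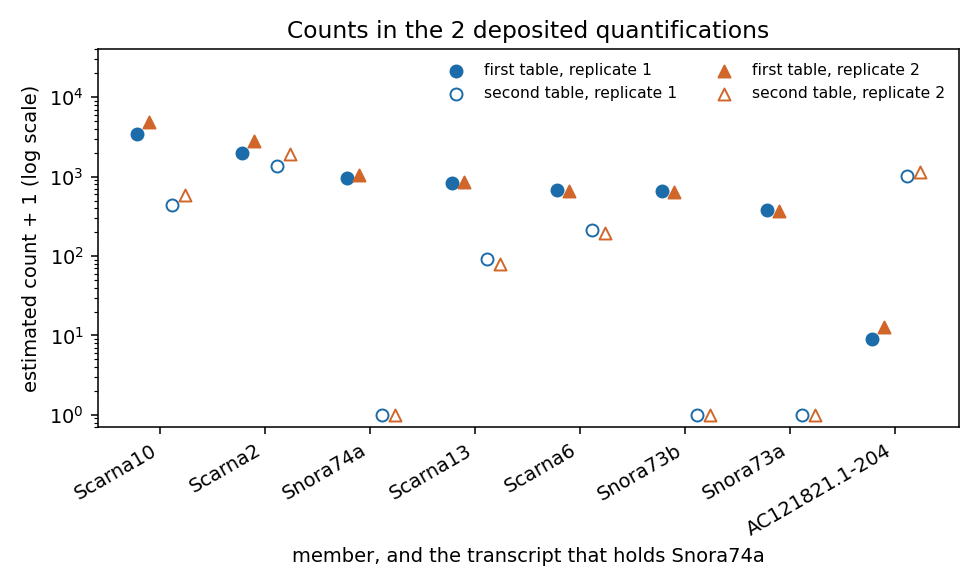
Estimated count plus 1 (log axis) of members and of the AC121821.1 transcript that holds Snora74a, in the first (filled) and second (open) deposited quantification, for both replicates. In the second quantification Scarna2 has 68.6% of its first count in replicate 1 and 67.9% in replicate 2. Snora74a and the Snora73 copies are at 0 in the second, and the AC121821.1 transcript stands at 1022 and 1147 there.

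Most members sit inside other genes. A host gene on the same strand was found for 45 of 51 members, and none for Scarna2, Snora57, Snora17, Scarna17 and both Snora43 entries. The members with most reads did not have the hosts with the highest levels. The 7 hosts of the long members had mean levels of 1.65 to 30.3 TPM, and the 35 hosts of the shorter members had a median of 63.4 TPM. Snhg10, the noncoding host of Scarna13, had 14 and 12 counts beside the 821 and 844 of Scarna13. Ncapd2, a condensin subunit and host of Scarna10, was measured at 8.95 and 15.5 TPM in replicates 1 and 2. Its log2 difference was 0.41, beside 0.37 for Scarna10. Atg16l1, an autophagy gene and host of Scarna6, had 30.3 ± 3.33 TPM (SD, n = 2) and a difference of -0.004, beside -0.18 for Scarna6. Rcc1, a nucleotide exchange factor of the small GTPase Ran, had 6.19 TPM and Snhg3 11.1 TPM. Their log2 differences were 0.23 and 0.057, beside -0.16 for Snora73b and -0.18 for Snora73a. AC121821.1, a host of Snora74a, had a difference of 0.21, beside 0.013 for Snora74a. Whether hosts and members differ together was not tested.

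Ribosomal protein genes hold 11 of the members, all short. Those hosts had 59.4 TPM or more, yet none of these members exceeded 26.9 counts in a library, and their mean counts summed to 58.1. Snora21, for example, lies in Rpl23, at 160 TPM. Further cases were chosen after their values were seen. Snora31 had 1 and 3 counts in Tpt1, at 488 TPM, and Snora81 had 0 in Eif4a2, at 450 TPM. Most of the 11 members lie wholly inside an exon of a host transcript, and so does Snora81. The Eif4a2 transcript that holds Snora81 had 117 counts in replicate 1 and 218 in replicate 2. Host and member levels share the library and, for members inside exons, the reads, so no correlation is given.

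**Figure D5:**
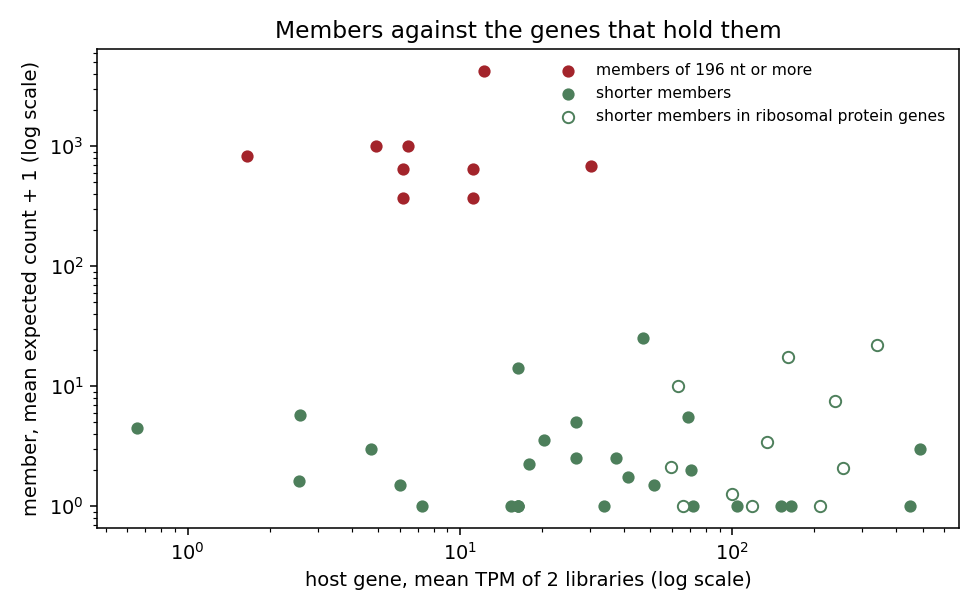
Mean expected count plus 1 of each member against the mean TPM of its host gene (both log axes, 2 libraries, a point for each host where a member has several), by length class, with open points for shorter members in ribosomal protein genes. The long members lie at high counts with hosts of 1.65 to 30.3 TPM, and members in ribosomal protein genes lie at low counts with hosts of 59.4 TPM or more.

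On the same strand, 8 members overlap an annotated miRNA gene. They include Snora74a, with 958 counts in replicate 1 and 1063 in replicate 2, of which the miRNA gene Gm49347 covers 96 nt. Whether a mature miRNA lies inside Snora74a was not tested, so the list that follows is not complete for the abundant members. Mature miRNAs from RefSeq (GRCm38.p6) were found wholly inside Scarna3a, Scarna3b, Scarna13, Snora36b, Snora34 and Snora19. Those in Scarna13, the one of these with many reads, and in Snora34 are shown with the seed, bases 2 to 8, in capitals.
mmu-miR-3069-5p: uUGGCAGUcaagauauuguuuagc
mmu-miR-3069-3p: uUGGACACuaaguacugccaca
mmu-miR-1291: aUGGCUCUuacugaagacuagcaguu
The arms of miR-3069 lie at positions 210 to 233 and 251 to 272 of the 275 nt of Scarna13, and miR-1291 covers positions 1 to 26 of Snora34. These libraries do not separate miRNAs from the longer RNA, so the counts above are those of the scaRNA and snoRNA entries.

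The genes of the H/ACA particle proteins were close to each other in RNA level. Dkc1, the pseudouridine synthase, had 22.4 ± 4.56 TPM, Nop10 25.9 ± 0.205, Nhp2 24.5 ± 1.82 and Gar1 21.5 ± 1.90 TPM (SD, n = 2). None of the 4 differed more than 2-fold between the animals. Their log2 differences were 0.061, -0.065, 0.10 and -0.32, and with spike-in scaling 0.34, 0.21, 0.38 and -0.046, so Nop10 changes sign. The genes of the box C/D proteins ranged wider, with Snu13 at 59.6 TPM, Nop56 at 46.0, Nop58 at 28.8 and the methyltransferase fibrillarin (Fbl) at 21.9. No protein was measured.

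Of 8 listed assembly factors 7 were found by symbol, at 3.68 to 19.4 TPM, and none differed more than 2-fold. The highest were Pih1d1 at 19.4 TPM, the ATPases Ruvbl1 at 18.1 and Ruvbl2 at 14.8, and Rpap3 at 13.9. Naf1 and Shq1, early binding partners in H/ACA assembly, had 6.68 and 3.68 TPM. The genes of the 12 Cajal body proteins had 3.22 to 29.7 TPM and none differed more than 2-fold. Ice1 was the highest at 29.7 TPM, with Nolc1 at 20.4, Uspl1 at 19.6 and Smn1 at 18.3. Coilin (Coil), the marker protein of the Cajal body, had 9.74 TPM, and Wrap53, which binds the Cajal body signal of scaRNAs, had 6.93 TPM.

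Trimming enzymes shape the 3′ ends of these RNAs. Parn, a deadenylase that trims H/ACA RNAs, had 468 counts in replicate 1 and 760 in replicate 2, or 9.72 and 15.1 TPM. Its log2 difference was 0.56, the largest in its list, and 0.84 with spike-in scaling. All 4 genes of the list with at least 50 counts (Parn, Tent4b, Exosc10 and Dis3) were higher in replicate 2 with TMM scaling, against 45.5% of all genes, and none passed 2-fold. The differences of Tent4b, Exosc10 and Dis3 were small, at 0.10, 0.13 and 0.096 (counting SE 0.057, 0.070 and 0.096). In the other lists, 2 of 4 H/ACA core, 2 of 7 assembly, 5 of 12 Cajal body and 2 of 4 box C/D genes were higher. So were 1 of 1 telomerase genes and 3 of 10 cortex markers. The box C/D gene Nop56 had a difference of 0.42. Exosc10, an exosome nuclease, had 20.7 TPM, and Tent4b, a polymerase that adds short tails, 16.5 TPM.

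Terc, the telomerase RNA, ends in an H/ACA domain and binds the same proteins, although it is not a member by symbol. It had 5 counts in replicate 1 and 26 in replicate 2, or 0.850 and 4.27 TPM. The second table gave 5 and 20 counts. Replicate 2 was the higher in both tables, at too few counts for the set of genes with a log2 difference. Tert, the protein subunit, had 46 and 70 counts and 0.870 ± 0.127 TPM (SD, n = 2).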

How the data were processed

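Total RNA from left cortex of 2 animals was sequenced, 1 directional library each. Per the deposited readme text, genome build mm10 and the GENCODE M21 annotation were used; no aligner, quantification tool or version is stated there or in the labels. Expected counts (first table) and estimated counts (second table) are the authors' deposited values per gene or transcript, not normalized, with reads that fit several features shared out. TPM values were scaled by the authors per effective length. Bounds of the credibility interval are deposited scores whose level is not stated. For reads of the hybrid no genome other than mm10 is named, and how they were matched is not stated. Use of strand in counting is not stated either, so members overlapping other transcripts are uncertain.

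CPM is the expected count over the library total. For log2 differences, expected counts were rounded, scaled by TMM in edgeR 4.0.16 (R 4.3.3) and given a prior count of 1, where the libraries averaged 50 counts or more. The script was tested on simulated data. No test was run, since there is 1 group of 2 libraries. Alternatives were spike-in, DESeq2 1.42.0 and total-count scaling, other count minimums and prior count, the second table, and leaving out each replicate. Counting error only is covered by SEs and by the limit of 3 counts. For the second table a median log2 ratio was planned, but most of the members were at 0 there, so the number above 0 is given. Named members are the 20 with the highest mean count, abundant scaRNAs, those with the largest differences, and Snora35, Snora73a, Snora73b and Snora74a; of partner lists, up to 4 by level and 3 by difference. Members and lists were chosen with earlier results of these data known.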

Additional observations from a re-analysis of the deposited data

How the results depend on the processing

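The number of members differing more than 2-fold between the animals was 0 under every alternative run. The median log2 difference of members was -0.097, and 0.179 with spike-in scaling. With a minimum mean of 10 counts it was -0.16. In the second table it was 0.0094 over only the 4 scaRNAs with enough counts there, whose median in the first table was 0.13. The direction of the median thus depends on the scaling and on which members enter. The number of members with at least 10 counts in both libraries, 10, became 22 at 1 count, 23 at 1 TPM and 4 in the second table. The members' share of counts, 0.0350%, became 0.00783% in the second table and 0.0402% of counts without spike-ins, 7SL and mitochondrial genes. The cause of the table difference was not tested. Of 11 levels recomputed in TPM, 10 moved by more than 1 SD in the second table, 7 of them to 0. Leaving out either replicate moved none of the 11 by more than 1 SD, as is always so with 2 libraries. No paired analysis was possible because both libraries belong to 1 group. Most of the shorter members had under 10 counts, and whether depth, capture or counting limits them was not tested.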
